A study of Lactuca sativa with 24 samples.

Results

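The 200 transcripts described here took the most nearly constant share of reads across light treatments and varieties in lettuce leaves. They were chosen from 31499 genes on their measured values. Among genes with a locus identifier as their name and a mean of at least 20 CPM (reads per 1000000 reads in genes) over 18 libraries, the 100 genes of highest mean were left out, which left 7515 eligible genes. The 200 genes with the lowest coefficient of variation (CV, the SD divided by the mean of CPM) were kept. Constancy over these 18 libraries is therefore the choice itself and not a finding.

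RNA was sequenced from baby leaves of the wild-type lettuce (Lactuca sativa) varieties Luna bionda and Falstaff, in 24 libraries, 3 in each of 8 groups. The Luna bionda groups were UVB for 2.5 h per day, UVB for 7.5 h per day and visible light alone, each for 6 days, and leaves of day 0. The Falstaff groups were UVB for 2.5 h per day, UVA for 7.5 h per day and visible light alone, each for 6 days, and leaves of day 0. UV came at 0.4 W per square metre from light-emitting diodes, at 306 nm for UVB and 365 nm for UVA, and every group was also given visible light. The labels do not tell whether the 3 libraries of a group are separate plants, and p-values then measure only the spread among libraries, which can be technical.

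The 18 libraries of the rule held 12072410 to 43276819 reads in genes and are called deep. They were 3 at UVB for 2.5 h, 2 at UVB for 7.5 h, 3 under visible light and 3 of day 0 in Luna bionda. In Falstaff they were 2 at UVB for 2.5 h, 1 under UVA, 2 under visible light and 2 of day 0. The other 6 libraries held 464282 to 1036697 reads, are called shallow and had no part in the choice. All 6 shallow libraries, and 4 of the deep ones (3 of Luna bionda UVB 2.5 h and 1 of Luna bionda day 0), carried batch tags of the lower of 2 number series in the labels. The names of the authors' tables and the labels place some libraries in different conditions, and the groups here follow the labels. Variety is the same in both. Leaf identity could be looked at only through plastid genes, which the tables name: rbcL (the large subunit of Rubisco) and psaB (a core protein of photosystem I) had 0 reads in all 18 deep libraries, and the highest value of psbA (the D1 protein of photosystem II) there was 39.1 CPM. In the shallow libraries psbA had 28431 to 82829 CPM. Nuclear leaf markers carry no product name here and were not looked at.

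Light changes the transcripts of a leaf through photoreceptors. In Arabidopsis, UVB is perceived by UVR8, which acts through COP1 and the transcription factor HY5 on genes of flavonoid sunscreens and DNA repair. Transcripts that stay level through such changes are used as internal references in quantitative PCR. In sequencing a level is a share of the reads in a library, so that a change in a few abundant transcripts shifts the share of all others, and what counts as constant depends on how libraries are scaled.

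For each of the 200 genes the reference gives a locus identifier and a class but no product, so no function is stated. Of the 200, 199 were protein-coding and 1, LOC111894609, was a long noncoding RNA. The 7515 eligible genes held 7291 protein-coding genes and 216 long noncoding RNAs. The noncoding member had a mean of 53.3 ± 8.85 CPM (SD, n = 18). In Luna bionda it had 55.4, 56.3 and 56.7 CPM at UVB for 2.5 h, 47.2 and 71.3 CPM at UVB for 7.5 h, 39.3, 57.8 and 55.5 CPM under visible light, and 48.3, 68.1 and 48.1 CPM at day 0. In Falstaff it had 42.9 and 42.6 CPM at UVB for 2.5 h, 49.8 CPM under UVA, 48.5 and 63.8 CPM under visible light, and 47.5 and 60.5 CPM at day 0. Its lowest and highest values were both in Luna bionda, at 39.3 CPM under visible light and 71.3 CPM at UVB for 7.5 h. Replicates lay close together at UVB for 2.5 h in both varieties, and up to 24.2 CPM apart elsewhere.

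The CV of the 200 ran from 9.35% to 17.2%, with a median of 15.3%, and that of the other 7315 eligible genes had a median of 36.5%. Around the threshold the values formed no step. The last genes inside, LOC111900068, LOC111884330 and LOC111888628, had CVs of 17.21%, 17.22% and 17.24%. The first outside, LOC111906418, LOC111908263 and LOC111902550, had 17.25%, 17.26% and 17.28%. Random counting of reads gives a CV of its own, and for the 200 this part had a median of 2.44% and a highest value of 4.43%. The CV of each of the 200 was thus larger than counting alone would give. Between the lowest and the highest of the 18 libraries the 200 differed by 1.35-fold to 2.32-fold, with a median of 1.75-fold, and 180 of them differed by less than 2-fold.

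**Figure D1:**
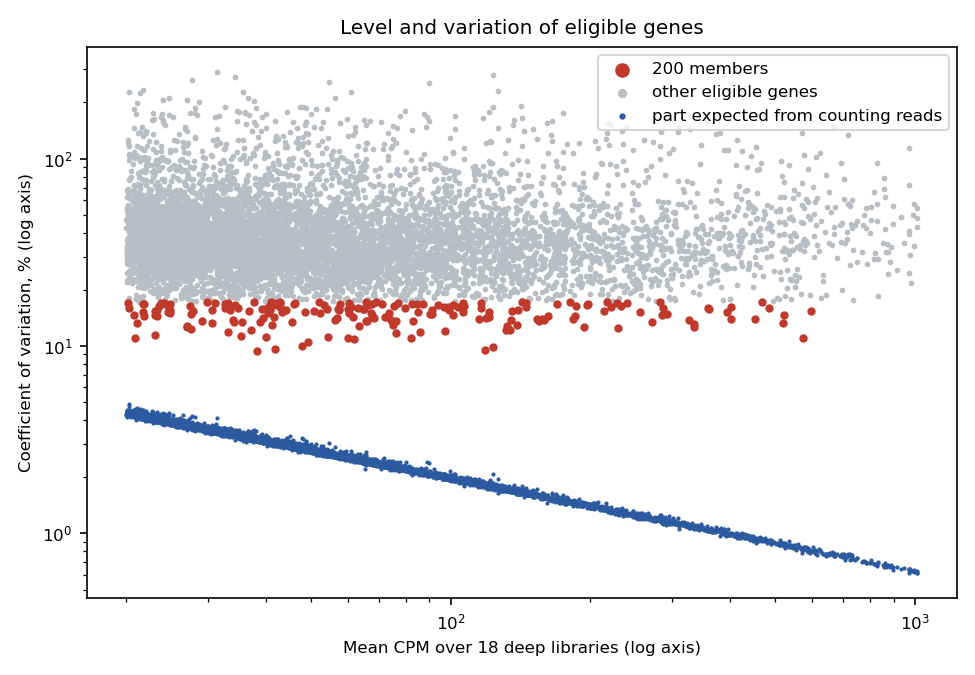
Each point is an eligible gene, with its mean CPM over the 18 deep libraries on the x axis and its coefficient of variation in percent on the y axis (both log axes). The 200 members (red) lie at or below 17.2% at all levels, other eligible genes (grey) lie above, and the part expected from counting reads (blue) lies below both and does not exceed 4.43% for any member.

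Constant genes were found at all levels within the allowed range. Between 20 and 50 CPM there were 76 of them, which is 1.87% of the 4055 eligible genes of that class. There were 58 between 50 and 100 CPM (3.34% of 1734), 38 between 100 and 200 CPM (3.87% of 983), and 28 at 200 CPM and over (3.77% of 743). CPM is not divided by transcript length, so it orders genes by their share of reads and not by molecules. The largest shares were those of LOC111893309 (596 ± 91.1 CPM, SD, n = 18), LOC111890892 (575 ± 63.0), LOC111899632 (523 ± 76.1), LOC111912800 (519 ± 68.9) and LOC111919992 (486 ± 77.7). The smallest were those of LOC111909964 (20.2 ± 3.44 CPM) and LOC111889112 (20.3 ± 3.23 CPM). Together the 200 genes took 2.04% to 2.34% of the reads of each deep library.

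LOC111881837 had the lowest CV, 9.35%, at 38.2 ± 3.57 CPM (SD, n = 18). In Luna bionda it had 39.3, 39.2 and 41.5 CPM at UVB for 2.5 h, 34.2 and 33.7 CPM at UVB for 7.5 h, 35.2, 39.7 and 38.7 CPM under visible light, and 42.0, 44.1 and 44.9 CPM at day 0. In Falstaff it had 38.0 and 33.2 CPM at UVB for 2.5 h, 34.8 CPM under UVA, 39.99 and 38.9 CPM under visible light, and 35.7 and 34.3 CPM at day 0. The 8 groups held 85.2% of its variance, the most of any of the 200 genes. The median of that share was 43.8% over the 200 and 51.3% over all eligible genes. With 8 groups among 18 libraries, a large part of the variance falls between groups even where groups do not differ. Such shares alone therefore show no effect of group. Luna bionda day 0 was the highest group and Luna bionda at UVB for 7.5 h the lowest in that variety, and neither overlapped with Luna bionda under visible light. This order holds for CPM: with the median-of-ratios size factors used for the limma tests, the log2 fold change for UVB for 7.5 h against visible light was 0.11 (SE 0.25).

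LOC111898627 came next, with a CV of 9.47% at 118 ± 11.2 CPM (SD, n = 18). In Luna bionda it had 126, 108 and 120.5 CPM at UVB for 2.5 h, 113 and 108.8 CPM at UVB for 7.5 h, 140.1, 127 and 101 CPM under visible light, and 131, 110.4 and 123 CPM at day 0. In Falstaff it had 117 and 118 CPM at UVB for 2.5 h, 124 CPM under UVA, 131 and 119.9 CPM under visible light, and 118 and 95.4 CPM at day 0. In Luna bionda the range of every other group overlapped with that of visible light. In Falstaff the libraries at UVB for 2.5 h and of day 0 were below both under visible light. The UVB ones were only a few CPM below the lower visible-light library. The 8 groups held 28.0% of its variance. LOC111901162, next in order, had 41.9 ± 4.04 CPM (SD, n = 18), with a lowest value of 34.2, a median of 43.3 and a highest of 47.6 CPM in Luna bionda, and 36.7, 42.1 and 45.7 CPM in Falstaff. The ranges of the varieties overlapped almost wholly.

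The next 7 genes were LOC111918240, LOC111888856, LOC111909979, LOC111902195, LOC111890892, LOC111918762 and LOC111877051, with CVs between 9.81% and 11.01%. LOC111890892 was the only gene among the first 10 above 200 CPM, with a lowest value of 521, a median of 587 and a highest of 701 CPM in Luna bionda, and 479.6, 525 and 659 CPM in Falstaff. LOC111877051 was the lowest in level of these, at 17.2, 20.5 and 24.9 CPM in Luna bionda and 17.0, 21.3 and 24.4 CPM in Falstaff. LOC111918762 had 68.0, 77.7 and 86.5 CPM in Luna bionda against 80.4, 86.8 and 106 CPM in Falstaff, with overlapping ranges. Its mean was lower in Luna bionda in CPM. With the median-of-ratios size factors used for the limma tests, its log2 fold change was 0.04 (SE 0.17), Luna bionda over Falstaff. The limma value is averaged over UVB for 2.5 h, visible light and day 0 only, so libraries differ here as well as scale.

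**Figure D2:**
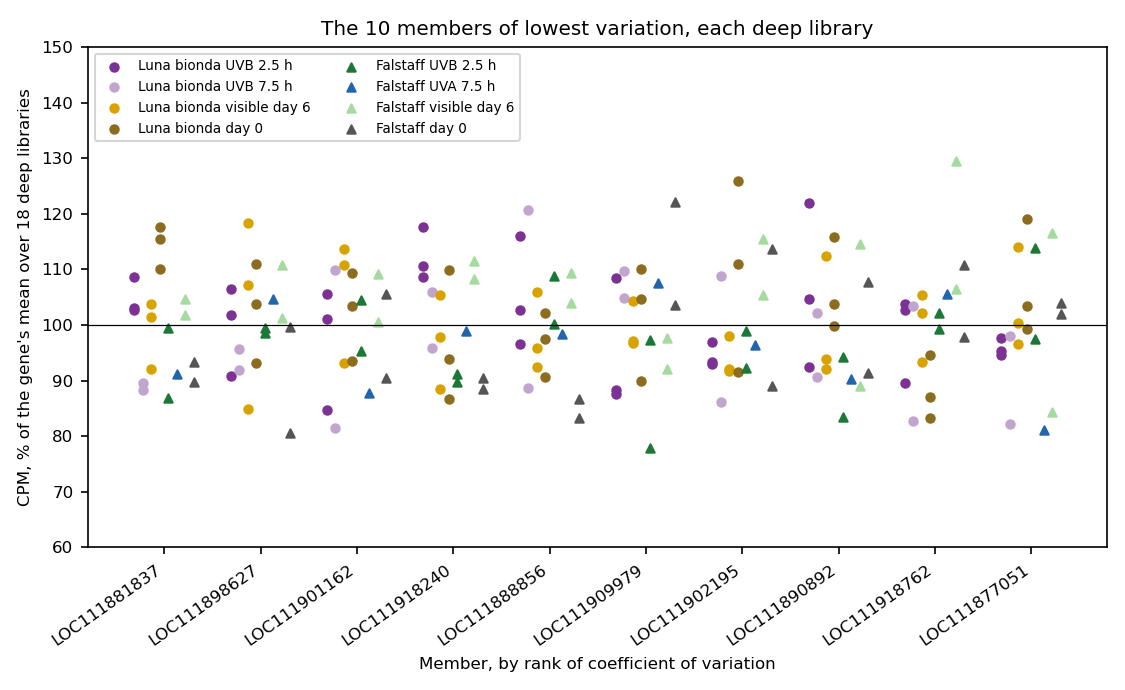
CPM of the 10 members of lowest variation in each of the 18 deep libraries, as a percent of the gene's own mean (y axis), with 1 point per library, circles for Luna bionda, triangles for Falstaff and a colour per group. The CVs of these genes run from 9.35% to 11.01%, and groups are mixed above and below the line in most of them; Luna bionda day 0 lies above it in all 3 libraries for LOC111881837.

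Over the 200 genes the ratio of the Luna bionda mean to the Falstaff mean ran from 0.782 to 1.24, and 145 of them were within 10% of equality. At the upper end, LOC111893120 had a lowest value of 29.7, a median of 35.1 and a highest of 43.5 CPM in Luna bionda, against 20.2, 30.2 and 32.9 CPM in Falstaff. At the lower end, LOC111888564 had 162, 213 and 250.1 CPM in Luna bionda, against 228, 257 and 307 CPM in Falstaff. Both pairs of ranges overlapped. None of the 200 had separate ranges in the varieties, where 1.02% of eligible genes had. The quartiles of the ratio of means were 0.932 and 1.05 for the 200, and 0.797 and 1.12 for other eligible genes. Because the rule took genes with small total variation, nothing is read from these differences.

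Comparisons of groups were made with limma in a single fit of the 18 deep libraries, on log2 values scaled by median-of-ratios size factors, with adjustment over 22668 genes. Luna bionda against Falstaff, averaged over UVB for 2.5 h, visible light and day 0, gave 0 calls among the 200 genes, where 8.37% of all genes were called at a limma adjusted p of 0.05. The smallest limma adjusted p among the 200 was 0.0518, for LOC111893120, with a log2 fold change of 0.47 (SE 0.14), and 17 of the 200 had an unadjusted p under 0.05, as had 4445 of all genes. For UVB for 2.5 h against visible light (both varieties), UVB for 7.5 h against visible light (Luna bionda), UVA against visible light (Falstaff) and day 6 against day 0 under visible light (both varieties), limma called 0 of the 200, with 0%, 0%, 0% and 0% of all genes called. In these 4 comparisons 0, 6, 0 and 0 of the 200 had an unadjusted p under 0.05, and 823, 895, 365 and 874 of all genes. UVA rests on 1 deep library, which is assumed to vary like the other groups. All Luna bionda libraries at UVB for 2.5 h carried tags of the lower series. With a term for the series limma also called 0 of the 200 for variety and for UVB for 2.5 h. Of all genes it then called 4.88% and 0.0132%. Median log2 fold changes of the 200 were 0.19 and 0.10 with the term. Their median SEs were 0.24 and 0.28, against 0.16 and 0.20 without it. Luna bionda day 0 was the only group with deep libraries of both series. The term therefore rests on its 1 library of the lower series, and nothing is read from these medians. With edgeR 0 of the 200 were called in each of the 5 comparisons, where edgeR called 8.23% of all genes for variety and 0% in the other 4. DESeq2 called 3 of the 200 for variety, all higher in Luna bionda, where it called 12% of all genes. It called 0 of the 200 in the others, with 0.0265% of all genes for UVB for 2.5 h, 0% for UVB for 7.5 h, 0.0397% for UVA and 0.0132% for day 6. Since the 200 were chosen on these libraries, these counts describe them and are no support for constancy.

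The sizes of the fold changes depended on the scale. For variety the median log2 fold change of the 200 was 0.19 with size factors, against -0.01 for all genes, and -0.02 when libraries were scaled to their sum, as in CPM, against -0.22 for all genes. For UVB for 7.5 h these medians were 0.27 against 0.01 with size factors, and 0.01 against -0.24 in CPM. Changing the scale moved the median of all genes by over 0.1 in these comparisons and in that of UVB for 2.5 h, where it was -0.02 with size factors and -0.20 in CPM. The 200 had a median of 0.09 with size factors and -0.09 in CPM for UVB for 2.5 h, so that the sign turned with the scale. With libraries scaled to their sum, limma called 0 of the 200 for variety, where 8.88% of all genes were called, 625 higher and 1393 lower in Luna bionda. With size factors the calls over all genes were 840 higher and 1058 lower. The distance of the 200 from the median of all genes was similar on either scale, at 0.20 and 0.20 for variety. It was 0.11 and 0.11 for UVB for 2.5 h, and 0.26 and 0.25 for UVB for 7.5 h. A change of scale moves the log2 fold changes of all genes in a comparison by nearly the same amount. This likeness therefore follows from the calculation, and nothing is read from it. For UVA and for day 6 the medians of the 200 were -0.01 and -0.00 with size factors and -0.03 and 0.03 in CPM.

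Single libraries also moved these medians. With size factors the median of the 200 for UVB for 7.5 h was 0.15 without Luna bionda visible light replicate 1. It was 0.38 without replicate 3 of that group, and -0.13 with all 24 libraries. For UVB for 2.5 h it was 0.02 without Luna bionda visible light replicate 1 and 0.04 without Luna bionda UVB 2.5 h replicate 2. It was 0.15 without Luna bionda UVB 2.5 h replicate 1 and 0.14 without Luna bionda visible light replicate 3. With all 24 libraries it was 0.18 for UVB for 2.5 h and 0.43 for variety. For UVA it ran from -0.07 to 0.02 and for day 6 from -0.08 to 0.09 with single libraries left out, so that neither had a stable sign, and with all 24 libraries UVA had -0.72, against -0.69 for all genes.

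In CPM the median of the 200 relative to their own means lay between -0.13 and 0.11 on the log2 scale in all 18 deep libraries, and that of other eligible genes between -0.64 and 0.19. The narrow range of the 200 follows from the choice, which was made in CPM. On size factors the median of the other eligible genes lay between -0.22 and 0.05. Such factors are set from the median gene of each library, so nothing is read from that range either. With size factors the median of the 200 was 0.55 in Luna bionda UVB 2.5 h replicate 2 and 0.24 in replicate 3, and it was -0.46 in Luna bionda visible light replicate 1, -0.37 in Falstaff day 0 replicate 2 and -0.35 in Falstaff UVB 2.5 h replicate 3. On that scale the median of the 200 was thus above 0 in both Luna bionda UVB 2.5 h libraries named and below 0 in the other 3. The share of reads taken by the 100 genes of highest mean was 28.2% in Luna bionda UVB 2.5 h replicate 2, the most of the 18. It was 17.2% in Luna bionda visible light replicate 1, the least. In Falstaff day 0 replicate 2 and Falstaff UVB 2.5 h replicate 3, with medians of -0.37 and -0.35, it was 20.5% and 21.3%. Not all libraries followed this order. The share was 26.9% in Falstaff day 0 replicate 3 and 26.7% in Luna bionda visible light replicate 3, with medians of -0.01 and -0.00. In Luna bionda UVB 2.5 h replicates 1 and 3 it was 26.9% and 24.1%, with medians of 0.13 and 0.24. Its part in the shift was not tested.

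**Figure D3:**
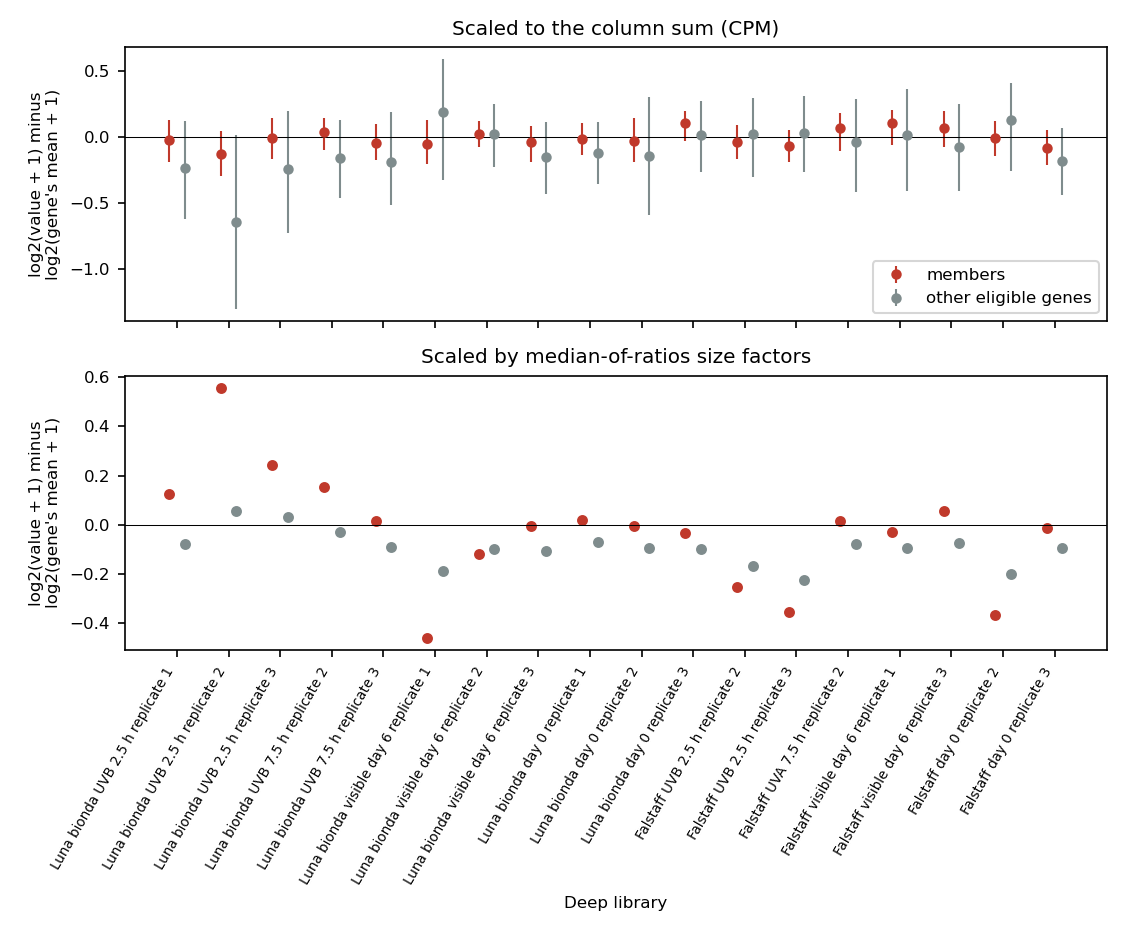
Median log2 value of the 200 members (red) and of the other eligible genes (grey), relative to each gene's own mean, in each of the 18 deep libraries (x axis). The upper panel is scaled to the column sum, as in the choice of the members, with bars over the interquartile range. There the medians of the members stay between -0.13 and 0.11 and those of other eligible genes between -0.64 and 0.19. The lower panel is scaled by size factors, where the medians run from -0.46 to 0.55 for the members and from -0.22 to 0.05 for other eligible genes.

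The scale also set the values when the response to UVB for 2.5 h was compared between varieties, a test chosen after the data had been seen. All Luna bionda libraries at UVB for 2.5 h carried tags of the lower series, and the other deep libraries compared carried the upper. A difference of response can therefore not be told apart from the tag series here, and no term for the series was fitted. With size factors the median difference of response of the 200, Luna bionda minus Falstaff, was 0.81 on the log2 scale, against -0.05 for all genes, and 85 of the 200 had an unadjusted p under 0.05, as had 4192 of the 22668 genes tested. In CPM the median was 0.10, against -0.73 for all genes, and 1 of the 200 had such a p, as had 5126 of 22716 genes. Limma called 0 of the 200 on either scale, and 0% of all genes. The edgeR test also called 0 of the 200, and 0% of all genes. It put 76 of the 200 and 4391 of all genes under an unadjusted p of 0.05. For day 6 against day 0 limma and edgeR called 0 of the 200 for the difference between varieties, and each called 0% of all genes. Limma and edgeR put 10 and 5 of the 200, and 769 and 906 of all genes, under an unadjusted p of 0.05.

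Which genes are the most constant followed the scale as well. When the rule was applied to values scaled by size factors, 36 of the 200 were chosen again, and with TMM scaling 51. With size factors the median CV of the 200 was 22.2%, against 36.0% for other eligible genes, and 12.2% of eligible genes lay below it. Of the 10 genes of lowest CV, 1 was kept with size factors. It was LOC111898627, with a CV of 16.8% there, and it was also the only gene kept under all 13 changes of the rule that were tried. The most constant gene with size factors was another of the 200, LOC111904546, with a CV of 9.43% on that scale and 16.3% in CPM.

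The use of all 24 libraries kept 18 genes, and Luna bionda alone kept 121 and Falstaff alone 60. CPM over nuclear protein-coding genes kept 193, subtraction of the counting part 194, the SD of log2 values 183, equal weight for each group 180, and a minimum of 10 CPM 181. The ratio of the highest to the lowest library kept 148, and a minimum of 50 CPM 124. Leaving out 1 deep library kept between 159 and 191, with the lowest number without Luna bionda UVB 2.5 h replicate 2. In all 18 such lists 135 of the genes were kept, among them all 10 of the lowest CV.

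**Figure D4:**
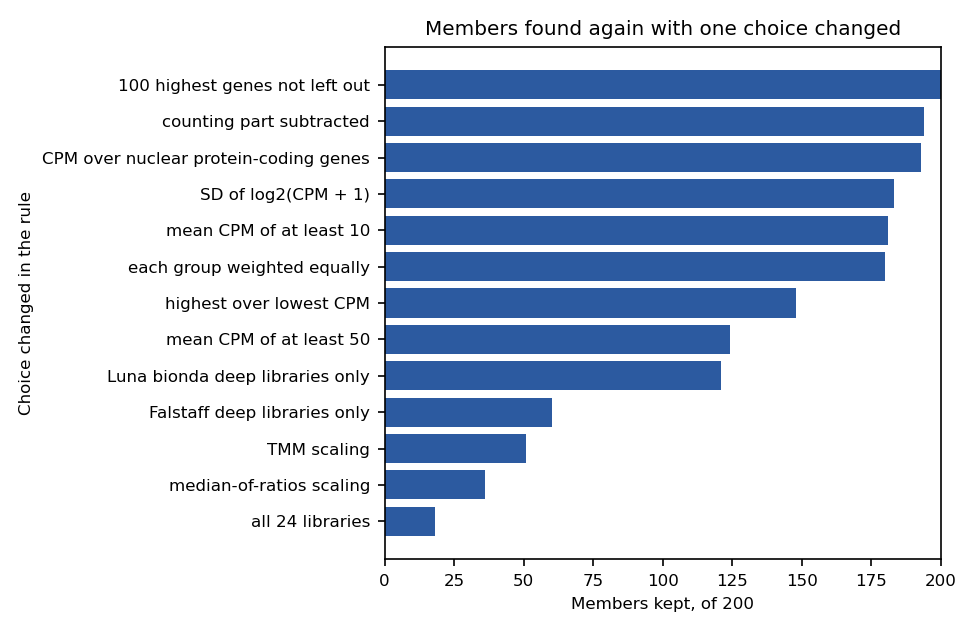
Number of the 200 members chosen again (x axis) when 1 choice in the rule was changed (y axis). Filters and measures of variation kept 124 to 200, and Luna bionda alone 121 and Falstaff alone 60, whereas TMM scaling kept 51, size factors 36 and the use of all 24 libraries 18.

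A library that did not help choose a list gives values that the choice did not use. When each deep library was left out in turn and 200 genes were chosen on the other 17, the median absolute log2 ratio of the left-out library to the mean of the others was 0.12 to 0.31 for the chosen genes, and 0.25 to 0.87 for other eligible genes. It was lower for the chosen genes in 18 of 18 libraries. Except for UVA, libraries of the same group stayed among the 17 that chose, and the lists shared most of their genes. The 18 libraries are therefore not separate checks. The farthest library was Luna bionda UVB 2.5 h replicate 2, where 191 of the 200 chosen genes, or 95.5%, lay within 2-fold of the mean of the others, against 56.6% of other eligible genes.

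The varieties, which share no library, gave a further view. With the rule applied to the 11 deep Luna bionda libraries alone and to the 7 deep Falstaff libraries alone, 33 genes were on both lists, 16.5% of either, and 31 of these were among the 200. Of the 200, 121 were on the Luna bionda list and 60 on the Falstaff list, and 50 were on neither. The genes chosen in Luna bionda had a median CV of 16.02% in Falstaff, where eligible genes had 27.9%, and 189 of them were below that value. The genes chosen in Falstaff had a median CV of 22.7% in Luna bionda, where eligible genes had 37.3%, and again 189 were below it. Each list was thus less variable than most eligible genes in the other variety.

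In the 6 shallow libraries, which took no part in the choice, the 200 genes were neither level nor equal to their deep means. Their median CV over these libraries was 53.1%, against 60.4% for other eligible genes, and 47.9% against 55.6% with the counting part subtracted. Without Falstaff UVA replicate 1 the values were 38.4% and 49.9%. Relative to the deep mean, the median log2 value of the 200 was -1.16 in Luna bionda UVB 7.5 h replicate 1, -1.19 in Falstaff UVB replicate 1, -3.01 and -1.62 in Falstaff UVA replicates 1 and 3, -1.59 in Falstaff visible light replicate 2 and -1.23 in Falstaff day 0 replicate 1. In each of the 6 libraries this was below the median of the other eligible genes, by 0.30 to 0.67 (mean 0.50, SD 0.13, n = 6). In these libraries the median number of reads per gene for the 200 was 4 to 31, so that single genes are poorly measured. In Falstaff UVA replicate 1, 43 of the 200 had 0 reads, where 20.1% of other eligible genes had 0.

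**Figure D5:**
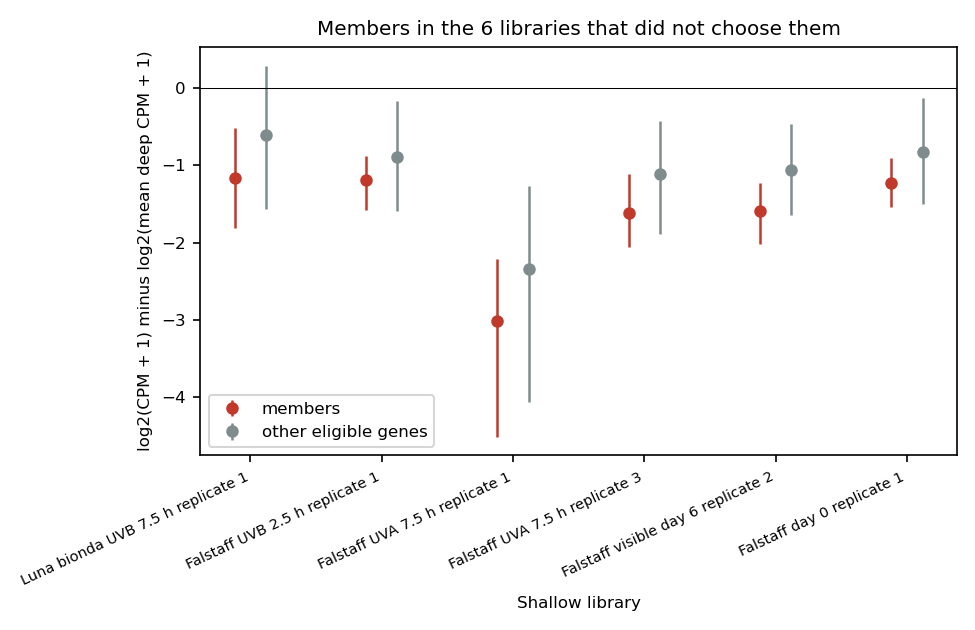
Median log2 value relative to the deep mean (y axis) of the 200 members (red) and of other eligible genes (grey) in each of the 6 shallow libraries (x axis), with bars over the interquartile range. In every library the members lie lower, by 0.30 to 0.67.

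Of the 200, 166 had a median over the shallow libraries below that of eligible genes, 64 were below in all 6 libraries and 7 were above in all 6. The matching shares of all eligible genes were not counted, so nothing about the 200 is read from these counts. LOC111907647 was the farthest below, with 0 to 21.7 CPM in the shallow libraries, from 34 reads in all, against 39.3 ± 5.51 CPM in the deep ones (SD, n = 18). LOC111899959 followed, with 4.31 to 49.3 CPM against 185.5 ± 26.8 CPM in the deep libraries. LOC111896892 had 0 to 15.7 CPM against 41.2 ± 5.33 CPM in the deep libraries. At the other end were genes whose shallow and deep ranges overlapped. LOC111901117 had 19.4 to 69.0 CPM in shallow libraries against 37.8 ± 6.48 CPM in deep ones, LOC111910383 had 8.62 to 51.0 against 23.3 ± 3.35 CPM, and LOC111889112 had 8.62 to 57.9 against 20.3 ± 3.23 CPM. LOC111881837, the gene of lowest CV, had 0 reads in the shallow Falstaff UVA replicates 1 and 3, which allows up to 6.46 and 6.37 CPM there, and 11.8 to 24.1 CPM in the other 4. The shares of reads from the plastid and mitochondrial genomes were 5.64% to 13.0% in shallow and 0.00291% to 0.0106% in deep libraries. For the 100 genes of highest deep mean they were 2.21% to 9.70% in shallow and 17.2% to 28.2% in deep libraries. The part of these differences, and of depth, in the lower values was not tested.

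By the gene order of RefSeq assembly Lsat_Salinas_v11, no 2 of them were direct neighbours. LOC111906799 and LOC111906801 had 1 gene between them, and LOC111913773 and LOC111913776 had 2. The members of the second pair had like levels, 335 ± 43.9 and 335 ± 42.1 CPM (SD, n = 18). No sequence was at hand, so whether the members of either pair are copies of each other was not tested. Like levels alone do not show it. How the authors counted reads that match more than 1 gene is unknown, so the values of near-identical genes, if these are such, would be uncertain.

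The authors' deposited tables each compare 2 sets of 3 libraries, and each table as a whole holds at least 1 shallow library. None of the 200 genes had an adjusted p under 0.05 in any of the 7 tables. In the authors' deposited table between varieties, 1.95% of genes with an adjusted p were under that value. In the other authors' deposited tables the percentages were 0.276%, 0.463% and 0.33% for Luna bionda sets and 0.00349%, 0.00349% and 0.0104% for Falstaff sets. The median log2 fold change of the 200 in the authors' deposited tables was 0.10 between varieties, -0.30, -0.62 and -0.27 for the Luna bionda sets and 0.48, 0.11 and 0.19 for the Falstaff sets, in the order of the percentages. The farthest from 0, -0.62, was in the authors' deposited table named UVB1 for Luna bionda, which by the labels sets UVB for 2.5 h against 2 libraries of visible light and 1 of UVB for 7.5 h. In that authors' deposited table the median absolute log2 fold change was 0.62 for the 200 and 0.50 for eligible genes. Most of the libraries in these tables also chose the 200 genes, so nothing is read from these counts.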

How the data were processed

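PolyA RNA of lettuce leaves was sequenced in 24 libraries, and groups and replicate numbers were taken from the labels. STAR and featureCounts 1.6.3 are the tools named in the submitters' processing notes. The sources used here do not give the STAR version, genome build, annotation or strand setting. The authors deposited normalized signal in 7 tables of 6 libraries. The authors deposited beside each table a log2 fold change, its error, a test score and a p-value, raw and adjusted, under DESeq2's column names per the file headers.

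Every deposited signal was a whole multiple of a single step per library (100% of values at a relative tolerance of 0.001), so whole reads were recovered and the 24 libraries joined. The batch tag of the labels tied each column to its sample. Of 31499 identifiers, 31073 matched RefSeq assembly Lsat_Salinas_v11, which was used for gene class and gene order. CPM is reads divided by the column sum, times 1000000. Members and lists were chosen with earlier results of these data known. No sequence or product name was at hand, so the planned sequence features and lists by product were not analysed here.

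The comparisons used limma 3.58.1 (R 4.3.3), with the prior variance following mean level, on log2(reads / median-of-ratios size factor + 1), in a fit of 8 groups over 18 deep libraries, for genes with a mean of at least 10. A gene was called where its p, adjusted by Benjamini-Hochberg, was under 0.05. The limma step was also run on simulated data. Log2 ratios to a deep mean used a pseudocount of 1. Intervals and limits for a count of 0, set at 3 reads, cover counting error only. Alternatives were pseudocounts of 0.5 and 5, TMM scaling, all genes unfiltered, edgeR 4.0.16, DESeq2 1.42.0, a replicate block, a batch tag term, all 24 libraries, and each library left out; column-sum scaling and differences of response between varieties were added after the data had been seen. Named genes are the 10 of lowest CV, the 5 of highest and 2 of lowest mean, 3 on either side of the threshold, the 3 highest and 3 lowest in the shallow libraries, and members called in a comparison by limma as described, of which there were none. LOC111894609, LOC111893120, LOC111888564, the neighbouring pairs and the 5 genes of lowest CV with size factors were named after their values were seen.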

Additional observations from a re-analysis of the deposited data

How the results depend on the processing

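With limma 0 of the 200 genes were called for variety, where 8.37% of all genes were called. The count was 1 with a pseudocount of 0.5 (8.16% of all genes), 2 with no filter (7.34%) and 3 with DESeq2 (12%). It was 0 to 2 when single libraries were left out. It was 2 without Luna bionda UVB 2.5 h replicate 1 (10.9% of all genes) and 1 without its replicate 3 (8.01%). Without Luna bionda visible light replicate 1 it was also 1 (8.23%). The 200 were chosen for small variation, so nothing is read from their lower share. The other 4 comparisons gave 0 in every alternative run; UVA has no value without its only deep library. With a replicate block 0 of the 200 genes were called in each comparison, and for variety 1695 of all genes instead of 1898. Numbers of the labels did not pair the libraries: of 42 same-numbered pairs of libraries, 8 had a correlation of deviations over 0.1, and 2 of 17 libraries were closest to one of their own number. Over all genes the calls for variety were 1310 to 2475 with single libraries left out, 1106 with a batch tag term and 689 with all 24 libraries. For UVB 2.5 h, all genes gave 15 calls with no filter, 6 with DESeq2, 3 with a batch tag term and up to 30 without a library (Luna bionda UVB 2.5 h replicate 1). For UVB 7.5 h no filter gave 4, for UVA no filter gave 179 and DESeq2 9, and for day 6 they gave 10 and 3. Of the 200 genes, 36 were kept with median-of-ratios and 51 with TMM scaling, 124 with a minimum of 50 CPM, 18 with all 24 libraries, 121 in Luna bionda alone and 60 in Falstaff alone, and 159 to 191 with single libraries left out. The cause was not tested. In the shallow libraries the log2 distance of the 200 from other genes was -0.53 to -0.46 with single libraries left out, and the difference of median CVs -11.5 (without Falstaff UVA replicate 1) to -4.59 (without Falstaff visible light replicate 2) percentage points, against -7.31 with all 6. Depth of the shallow libraries limits single genes.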

Other observations

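With median-of-ratios scaling, the genes that followed LOC111904546 in order of CV were LOC111879843 (10.0% on that scale and 20.6% in CPM), LOC111902618 (10.3% and 21.1%), LOC111884375 (10.4% and 21.7%) and LOC111917699 (10.4% and 20.5%). None of these 4 was among the 200 genes chosen in CPM.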
